A study of Mus musculus with 6 samples.

Results

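*Cthrc1*, *Olfml3* and 8 marker genes of perichondrial fibroblasts (*Aspn*, *Ogn*, *Pdgfra*, *Pdgfrb*, *Ly6a*, *Dpp4*, *Cd34* and *Prrx1*) were followed in cultured chondrocytes of periostin knockout and wild-type mice. These were 10 of the 41388 genes in the files, and all 10 were among the 14533 genes that passed the filter on low counts. *Cthrc1* and *Olfml3* were picked because an alternative model of these same counts placed them lower in the knockout, so their genotype values are a description and carry no test. The other 8 were named as markers of the cell type and were tested.

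The data were 6 RNA-seq libraries of 50-base single-end reads, 3 of *Postn*-/- and 3 of *wt* chondrocytes. All mice were male and 21 days old. The labels give their strain as B6/129, and the study names the background B6129SF2/J. The *Postn*-/- mice were homozygous for a germline null allele (*Postn* tm1Jmol), present in every tissue, and the *wt* mice did not carry it. Cells of the femoral head cartilage received no treatment and were cultured for 2 days before RNA was extracted, so both groups share isolation and growth on plastic. The study assigned 3 mice of each genotype to sequencing, while the labels do not tie a library to a mouse, so a p-value here measures the spread between these libraries.

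The perichondrium is the fibrous sheath around growing cartilage. Its fibroblast-like cells secrete collagens and small matrix proteins, respond to platelet-derived growth factor (PDGF) and include progenitors that can become chondrocytes or osteoblasts. *Cthrc1* encodes a secreted protein of injured arteries and fibrotic tissue that takes part in Wnt planar cell polarity signalling, and *Olfml3* encodes a secreted olfactomedin-domain protein. *Aspn* (asporin) and *Ogn* (osteoglycin, or mimecan) encode small leucine-rich proteins of the matrix. *Pdgfra* and *Pdgfrb* encode the PDGF receptors. *Ly6a* (Sca-1), *Dpp4* (CD26) and *Cd34* encode surface proteins used to sort stromal progenitors, and *Prrx1* encodes a homeobox transcription factor of limb mesenchyme.

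Libraries held 20587640 to 26572260 counted reads, at which 3 reads correspond to 0.113 to 0.146 CPM (counts scaled to a common library total). *Postn* itself was read at 4.64, 4.25 and 5.64 CPM in *Postn*-/-, against 10.1, 10.3 and 6.86 CPM in *wt*, so its groups did not overlap although reads remained in the knockout. Its log2 fold change (*Postn*-/- over *wt*, as throughout) was −0.91 ± 0.22 (SE), and its Benjamini-Hochberg adjusted p was 0.717 (edgeR, quasi-likelihood test). Over all tested genes, 2 passed the adjusted threshold of 0.05 (0.0138%) and 916 an unadjusted p of at most 0.05 (6.3%). One library, *wt* replicate 1, stood apart on the first principal component, at 47.7 against −17.4 to −0.017 for the other 5. The chondrocyte identity of the cultures was visible in all libraries: all 18 chondrocyte markers passed the filter, led by *Cnmd* (chondromodulin) at a mean of 2587 and *Comp* (cartilage oligomeric matrix protein) at 2424 CPM per kilobase of transcript.

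The sequences just before the start sites of 3 secreted matrix genes are shown first, because *Olfml3* had the widest spread among *Postn*-/- libraries of the picked pair, and because *Aspn* and *Ogn* lie close together on chromosome 13. Each is the 250 bases before the RefSeq start site on the gene's own strand in GRCm38.p6, with matches to the searched letters in capitals. They lie at chr3:103738002-103738251 (minus strand), chr13:49544193-49544442 (plus strand) and chr13:49607765-49608014 (plus strand).
Olfml3: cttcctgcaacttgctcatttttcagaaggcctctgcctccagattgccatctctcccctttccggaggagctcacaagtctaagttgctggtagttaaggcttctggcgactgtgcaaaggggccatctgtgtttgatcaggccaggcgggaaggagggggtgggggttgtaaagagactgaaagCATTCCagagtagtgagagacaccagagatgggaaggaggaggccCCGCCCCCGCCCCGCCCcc
Aspn: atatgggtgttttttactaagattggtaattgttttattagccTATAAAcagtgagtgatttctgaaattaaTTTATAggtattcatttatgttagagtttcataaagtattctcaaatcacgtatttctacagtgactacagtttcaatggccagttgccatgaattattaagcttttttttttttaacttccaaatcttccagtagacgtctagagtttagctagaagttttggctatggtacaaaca
Ogn: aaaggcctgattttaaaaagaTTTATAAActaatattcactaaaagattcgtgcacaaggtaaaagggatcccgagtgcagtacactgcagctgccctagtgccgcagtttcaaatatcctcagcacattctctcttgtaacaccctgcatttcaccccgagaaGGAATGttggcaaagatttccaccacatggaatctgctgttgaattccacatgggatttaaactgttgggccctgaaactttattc
Both strands were searched for 5 short patterns, and their shares were taken over 32851 mouse promoter windows of 300 bases, 250 before and 50 after the start. The AP-1 pattern TGANTCA was found in 7.81% of the windows and the TEAD pattern GGAATG in 14.7%. The Sox pattern ACAAAG was found in 18.7% of the windows, the TATA box letters TATAAA in 13.6% and the Sp1 pattern GGGCGG in 35.7%. *Olfml3* held GGAATG on the opposite strand at −64, and GGGCGG on the opposite strand at −19, −13 and −8, the last of these overlapping its neighbour by 1 base. *Aspn* held TATAAA at −207 and, on the opposite strand, at −178. *Ogn* held GGAATG at −86 and TATAAA at −227, which overlaps a match on the opposite strand at −229. Such matches are frequent, and they describe letters rather than bound sites. The full *Aspn* window was 31.0% G and C, that of *Ogn* 42.3% and that of *Olfml3* 58.0%, against a median of 52.7% over all windows. Among the other members, *Prrx1* held GGAATG at −180, *Dpp4* held GGAATG on the opposite strand at −118 and TATAAA at −227, and the windows of *Pdgfra* and *Cd34* held none of the 5 searched patterns. No window was used for *Cthrc1*, *Ly6a* and *Pdgfrb*.

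Per length, *Ogn* was the most abundant of the 10 genes and *Dpp4* the least. Mean levels over the 6 libraries, in CPM per kilobase, were 326 for *Ogn*, 60.9 for *Cthrc1*, 38.5 for *Pdgfrb*, 30.1 for *Ly6a* and 23.9 for *Olfml3*. The remaining genes formed a lower tier, with 2.12 for *Aspn*, 1.76 for *Prrx1*, 1.60 for *Pdgfra*, 1.27 for *Cd34* and 0.250 for *Dpp4*. Among neighbours in this order, the ranges over libraries were apart only between *Ogn* and *Cthrc1* and between *Cd34* and *Dpp4*. *Cthrc1* exceeded *Pdgfrb* in 6 of 6 libraries, though their ranges overlapped. *Ly6a* and *Olfml3* changed places in 2 libraries, and *Prrx1* exceeded *Pdgfra* in 3 of 6. Among tested genes *Ogn* stood at percentile 99.0 of level, *Cthrc1* at percentile 92.8, *Ly6a* at 86.4, *Cd34* at 29.3 and *Dpp4* at 4.91. Of the sorting markers, *Dpp4* was thus near the low end of the tested genes, with 25 to 47 reads per library, while *Cd34* had 35 to 181 reads and *Ly6a* 520.0 to 1432.

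**Figure D1:**
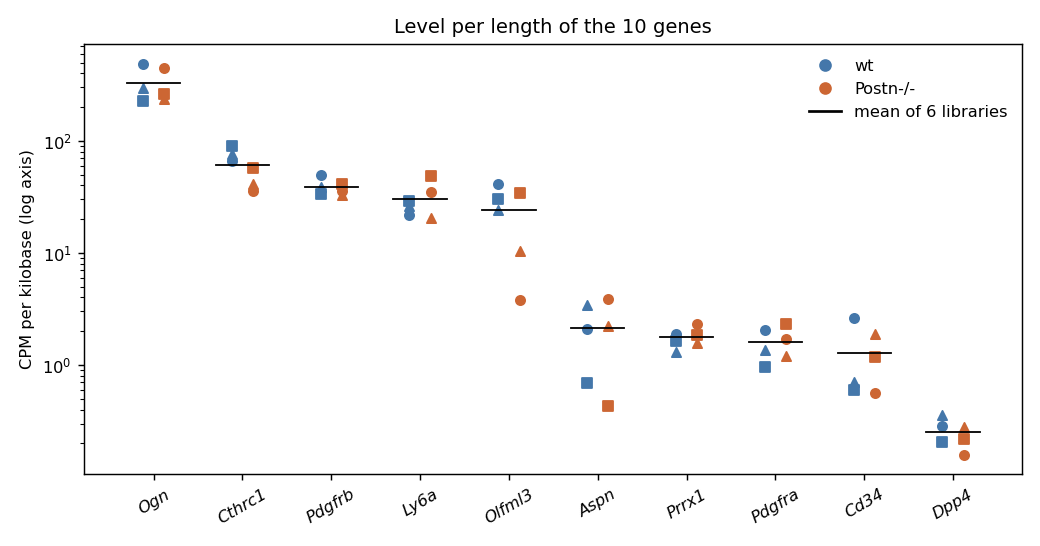
Level per length of each of the 10 genes, in TMM-normalized CPM per kilobase of gene length on a log axis. Each point is 1 library (circles, squares and triangles are replicates 1, 2 and 3) and the bar is the mean of all 6. *Ogn* leads at a mean of 326, and *Dpp4* is lowest at 0.250.

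*Cthrc1* was read at 53.1, 85.5 and 60.7 CPM in *Postn*-/- replicates 1 to 3 and at 97.6, 132 and 112 CPM in *wt* replicates 1 to 3. Every *Postn*-/- library lay below every *wt* library. The means were 66.4 ± 16.9 (SD, n = 3) and 114 ± 17.3 CPM, a 1.72-fold lower level with a log2 fold change of −0.78 ± 0.19 (SE). The raw counts behind these levels were 1280 to 2112 reads in *Postn*-/- and 2351 to 2936 in *wt*, and leaving out any 1 library gave log2 fold changes of −1.0 to −0.64. *Cthrc1* (chr15:39076932-39087121, plus strand) has no exon bases in common with another annotated gene. *Cthrc1* was the only one of the 10 members whose genotypes did not overlap. Of all tested genes, 13.6% had groups that did not overlap 6.57% in the lower and 7.03% in the higher direction. Since *Cthrc1* was chosen on this contrast, nothing is read from its place among them. In bulk RNA, fewer cells that express a gene and less RNA per cell cannot be told apart, here and for every gene below.

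*Olfml3* was read at 15.2, 136 and 41.6 CPM in *Postn*-/-, against 166, 122 and 96.2 CPM in *wt*. *Postn*-/- replicates 1 and 3 were below all *wt* libraries, while *Postn*-/- replicate 2 was above 2 of the 3, so the groups overlapped. The *Postn*-/- libraries spanned 8.99-fold and the *wt* libraries 1.72-fold. The means were 64.3 ± 63.6 (SD, n = 3) and 128 ± 35.1 CPM, with a log2 fold change of −0.99 ± 0.66 (SE). The size of this value rested most on *Postn*-/- replicates 2 and 1. Without replicate 2 the log2 fold change was −2.18, and without replicate 1, the lowest library, it was −0.52. Leaving out each other library in turn gave −1.16 to −0.76. The biological coefficient of variation fitted to *Olfml3* was 0.546, at percentile 99.2 of tested genes, against 0.187 for *Cthrc1* and a common value of 0.208. Its raw counts ran from 379 to 4331 reads, far above the counting floor. *Olfml3* (chr3:103733700-103738001, minus strand) lies on the chromosome of *Postn*, 49.4 Mb from it, and 2.74% of its exon bases are shared with an unnamed gene on the same strand.

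**Figure D2:**
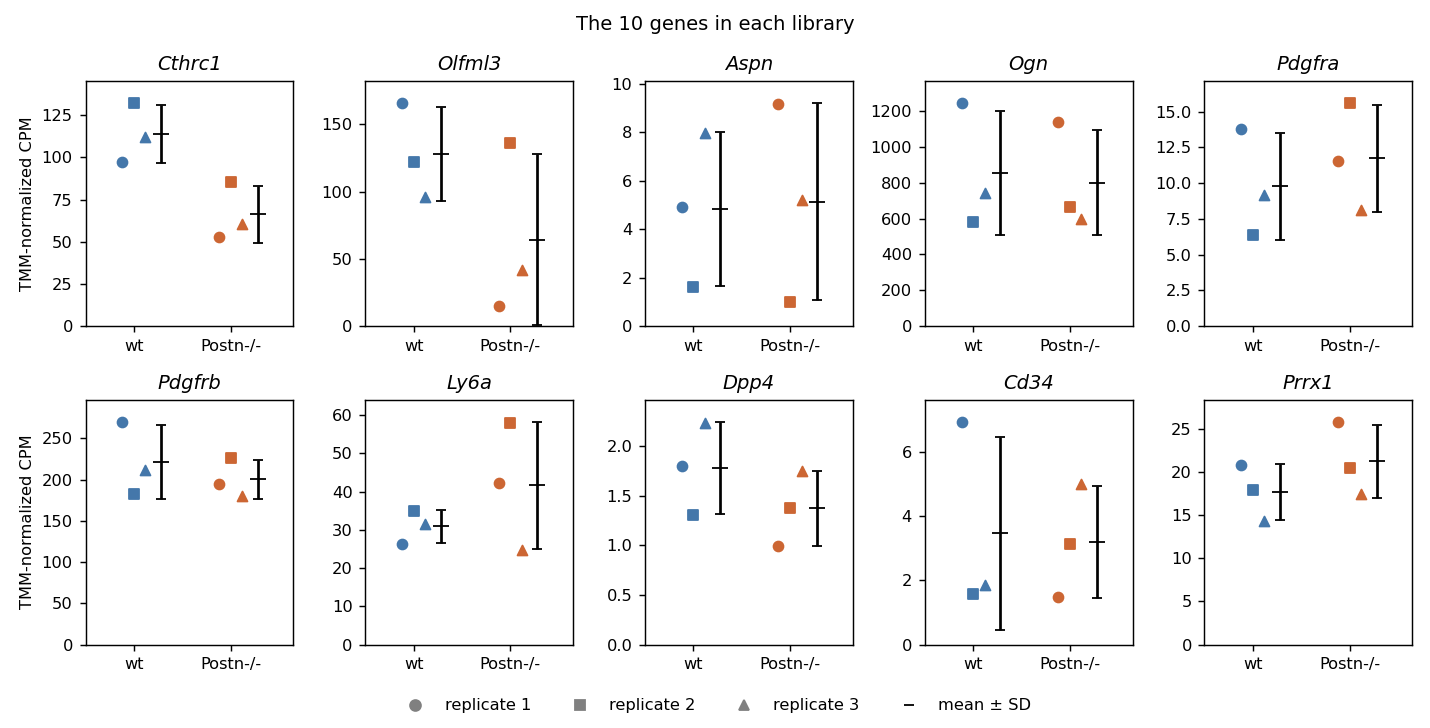
Each of the 10 genes in each library, in TMM-normalized CPM on a linear axis from 0. Blue points are *wt*, orange points *Postn*-/-, shapes mark the replicate number, and bars give the mean ± SD of 3 libraries. *Cthrc1* is the only gene whose groups lie apart (53.1 to 85.5 against 97.6 to 132), and *Postn*-/- replicate 2 stands far above the other *Postn*-/- libraries for *Olfml3*.

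Summed levels of other gene lists are given beside *Olfml3* by library. The summed level of 10 G2/M cell cycle genes, among them *Cdk1* and *Plk1*, was 63.8, 119 and 46.7 CPM per kilobase in *Postn*-/- and 164, 93.0 and 96.7 in *wt*. It was highest in *wt* replicate 1 and next in *Postn*-/- replicate 2, as *Olfml3* was. All 10 of these genes were fitted lower in *Postn*-/- (median log2 fold change −0.65, against 0.004 over all tested genes). Leaving out 1 library moved this median between −1.10 (without *Postn*-/- replicate 2) and −0.33 (without *wt* replicate 1). Only 9 were lower without *Postn*-/- replicate 1, *Postn*-/- replicate 3 or *wt* replicate 1. Of these 10 genes *Ccnb1* (cyclin B1) reached an unadjusted p of at most 0.05, beside 2.35% of all tested genes in that direction. The count depended on the setting: it was 9 without *Postn*-/- replicate 2 (when 1104 of 14277 tested genes did), 9 with surrogate variables (1882 of 14533) and 8 without a filter on low counts (1795 of 34295). It was 0 with upper quartile scaling, with the filter of over 1 CPM in all samples, in a robust fit, and without *Postn*-/- replicate 1, *Postn*-/- replicate 3, *wt* replicate 1 or *wt* replicate 3. No G2/M gene passed the adjusted threshold in edgeR's test. Adipocyte markers, summed, were 52.7, 434 and 53.1 CPM per kilobase in *Postn*-/- and 50.6, 277 and 115 in *wt*. *Postn*-/- replicate 2 was thus the library with the most adipocyte marker RNA, most of it *Fabp4*, the fatty acid-binding protein of fat cells. *wt* replicate 1, where *Olfml3* was highest, had the least, so the adipocyte sum did not follow *Olfml3* over all 6 libraries. The part of either list in the *Olfml3* values was not tested.

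**Figure D3:**
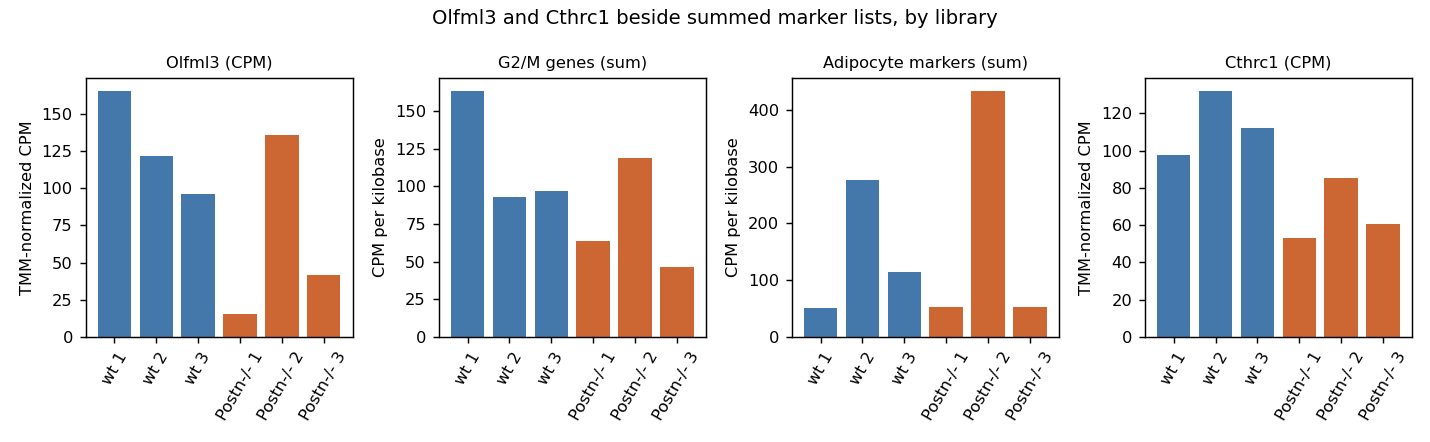
*Olfml3* and *Cthrc1* (TMM-normalized CPM) beside the summed G2/M genes and adipocyte markers (CPM per kilobase) in each library, as bars from 0. *Postn*-/- replicate 2 is the tallest orange bar in all 4 panels, at 136 CPM for *Olfml3* and 434 CPM per kilobase for the adipocyte markers.

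The genes whose levels ran most like those of the picked pair were found by Pearson correlation of log2 CPM over the 6 libraries, which share the genotype difference and the normalization. For *Cthrc1* these included *Anapc1* (r = 0.991), *Fam219b* (0.986), *Mrpl21* (0.986) and the noncoding *2700038G22Rik* (0.984), and 33 genes reached 0.95. *Anapc1* encodes a subunit of the anaphase-promoting complex. *Anapc1* tracked *Cthrc1* in order more than in size, with 98.0 ± 4.48 CPM in *Postn*-/- and 111 ± 4.17 in *wt*. For *Olfml3* these were *Adat1* (r = 0.987), *Chaf1a* (0.987), *Phf20l1* (0.980), *Map3k2* (0.979) and *2310030G06Rik* (0.977), and 34 genes reached 0.95. *Chaf1a*, a subunit of the chromatin assembly factor used in DNA replication, was at 1.52, 3.08 and 2.37 CPM in *Postn*-/- and 3.48, 3.02 and 2.77 in *wt*. With 6 libraries and 14533 genes, correlations of this size are a description of likeness alone. None of the other 9 members was among the 5 genes named for either.

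By the quasi-likelihood test of edgeR, none of the 8 tested markers passed the adjusted threshold and none an unadjusted 0.05, beside 0.0138% and 6.3% of all tested genes. None passed the adjusted threshold in DESeq2 or in limma's voomWithQualityWeights either, and none reached an unadjusted 0.05 there. Unadjusted p ran from 0.165 for *Ly6a* to 0.912 for *Aspn*, and adjusted p from 0.730 to 0.984. Fitted values were higher in *Postn*-/- for 4 of the 8 and lower for 4, with a median log2 fold change of −0.005. All 8 had overlapping genotypes. Their intervals still leave room for sizeable differences: the 95% interval of *Aspn* ran from −1.65 to 1.82 on the log2 scale, while that of *Pdgfrb*, the narrowest, ran from −0.52 to 0.23.

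**Figure D4:**
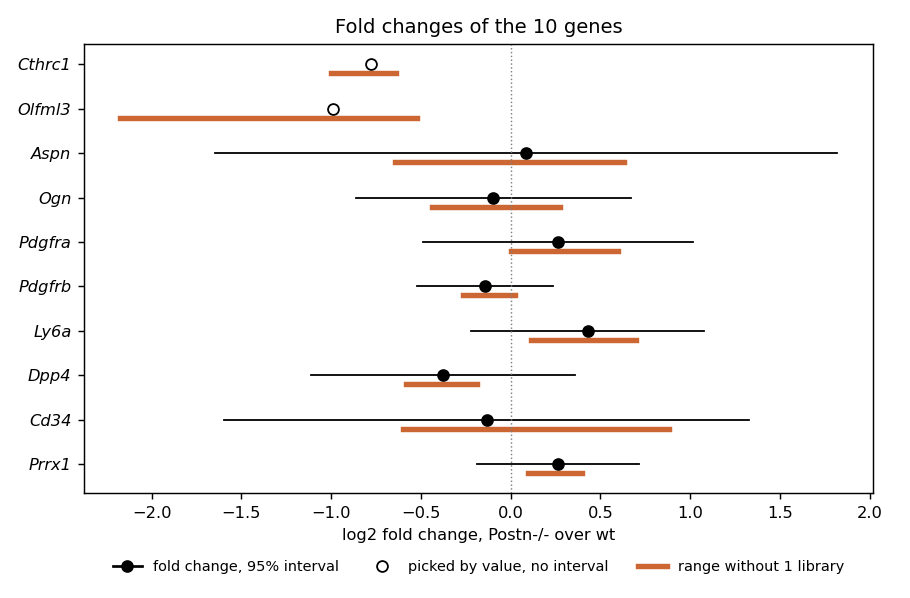
Log2 fold change (*Postn*-/- over *wt*) of the 10 genes. Filled points carry 95% intervals from edgeR's fit, open points are the 2 genes picked by value and carry none, and orange bars give the range when 1 library is left out. All 8 intervals include 0, and the orange bar of *Olfml3* runs from −2.18 to −0.52.

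Among the matrix proteins, *Aspn* was read at 9.16, 1.01 and 5.22 CPM in *Postn*-/-, against 4.93, 1.62 and 7.96 CPM in *wt*. Both replicate 2 libraries were low, with 25 and 36 reads, and *Postn*-/- replicate 1 was highest with 229. Its log2 fold change of 0.09 ± 0.75 (SE) turned negative in several alternatives, and its coefficient of variation of 0.627 was at percentile 99.6 of tested genes. *Ogn* was read at 1139.8, 664 and 599.9 CPM in *Postn*-/-, against 1245, 580.0 and 746 CPM in *wt*. The 2 replicate 1 libraries were highest, and the log2 fold change was −0.10 ± 0.33 (95% interval −0.86 to 0.67). Without *wt* replicate 1, the library that stood apart, the value for *Ogn* was 0.27.

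*Aspn* and *Ogn* belong to a row of related genes on chromosome 13, all on the plus strand, in the order *Ecm2*, *Aspn* (49544443 to 49567557), *Omd* and *Ogn* (49608071 to 49624500), with gaps of 11.7, 15.2 and 15.5 kb between them. *Ecm2* and *Omd* (osteomodulin) encode further leucine-rich matrix proteins. *Ecm2*, *Omd* and *Ogn* were each highest in *wt* replicate 1, followed by *Postn*-/- replicate 1, and lowest in *wt* replicate 2. *Ecm2* and *Omd* ranked all 6 libraries in the same order, and *Ogn* differed from it in the middle ranks. *Aspn* followed another order, highest in *Postn*-/- replicate 1 and lowest in *Postn*-/- replicate 2. The highest library exceeded the lowest 9.05-fold for *Aspn*, 3.54-fold for *Ecm2*, 2.15-fold for *Ogn* and 1.75-fold for *Omd*.

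**Figure D5:**
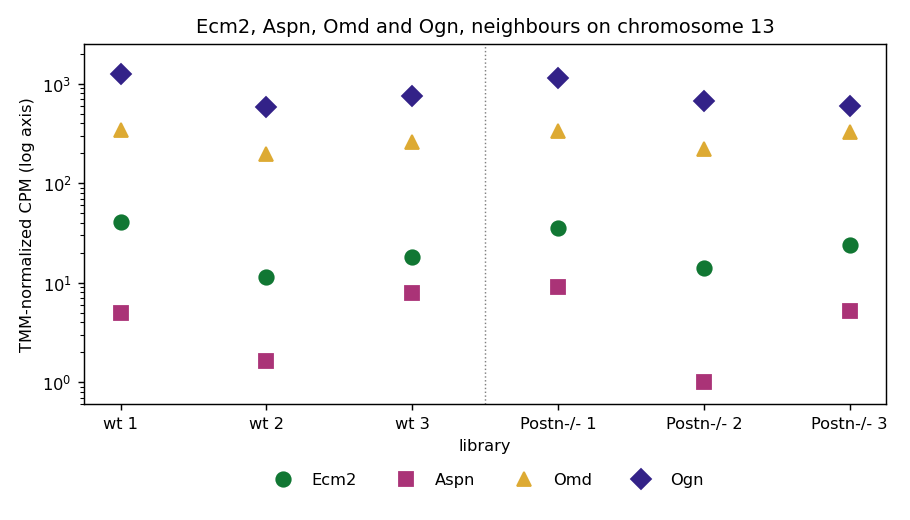
TMM-normalized CPM (log axis) of *Ecm2*, *Aspn*, *Omd* and *Ogn* in each library, with *wt* left of the dotted line and *Postn*-/- right of it. *wt* replicate 2 is the lowest library for *Ecm2*, *Omd* and *Ogn*, while *Aspn* is lowest in *Postn*-/- replicate 2 at 1.01 CPM.

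The other small leucine-rich proteoglycans, the family of *Aspn* and *Ogn*, gave 13 tested genes of 15. *Chad* (chondroadherin, a cartilage matrix protein) was at an unadjusted p of at most 0.05 (log2 fold change 0.68 ± 0.20), beside 3.95% of all tested genes in that direction, none of the 13 passed the adjusted threshold, and their median was 0.04. Per length the family was led by *Fmod* (fibromodulin) at a mean of 1431 and *Dcn* (decorin) at 679 CPM per kilobase. *Aspn*, at 2.12, was thus far below its abundant relatives in these cultures. Of the other olfactomedin family genes, the relatives of *Olfml3*, 7 of 9 were tested and none reached an unadjusted p of at most 0.05. There was 1 higher call with upper quartile scaling, without a filter, in voomWithQualityWeights, with surrogate variables and with the replicate block. In that order 924 of 14533, 1795 of 34295, and 1337, 1882 and 1188 of 14533 tested genes were called in either direction. The same count was reached without *Postn*-/- replicate 1, *Postn*-/- replicate 2 or *wt* replicate 1. In these fits 868 of 14428, 1104 of 14277 and 787 of 14456 tested genes were called. *Gldn* had the lowest unadjusted p of this family (1.03 ± 0.46).

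The PDGF receptors were read at unequal levels. *Pdgfra* was at 11.5, 15.6 and 8.11 CPM in *Postn*-/-, against 13.8, 6.39 and 9.15 CPM in *wt*. *Pdgfrb* was at 195, 226 and 180.0 CPM in *Postn*-/-, against 270.1, 183 and 211 CPM in *wt*. *Postn*-/- replicate 2 and *wt* replicate 1 were the highest 2 libraries for both receptors, though in opposite order. The log2 fold changes were 0.26 ± 0.33 for *Pdgfra* (95% interval −0.49 to 1.02) and −0.14 ± 0.16 for *Pdgfrb*. Without *wt* replicate 1 the value for *Pdgfrb* was 0.024, and without *Postn*-/- replicate 2 that for *Pdgfra* was 0.003. *Pdgfrb* (chr18:61045150-61085061, plus strand) exceeded *Pdgfra* (chr5:75152291-75198204, plus strand) per length in every library, with 32.9 to 49.3 against 0.949 to 2.31 CPM per kilobase.

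Among the ligands and signal proteins of these receptors, a single gene reached the unadjusted threshold. Of the 4 PDGF ligands, 3 were tested and none reached an unadjusted p of at most 0.05. *Pdgfa* led at 8.72 CPM per kilobase, and *Pdgfb*, with 1 to 5 reads per library, did not pass the filter. Of 14 PDGF receptor signal proteins, *Shc1*, an adaptor that docks on the activated receptor, was at an unadjusted p of at most 0.05 (0.41 ± 0.11), beside 3.95% of all tested genes in that direction. The median of the 14 was 0.03, and none passed the adjusted threshold. *Pdgfrb* is also made by pericytes and smooth muscle. Of 9 mural cell markers 8 were tested, and *Rgs5* and *Abcc9*, both higher in *Postn*-/-, were at an unadjusted p of at most 0.05, beside 3.95% of all tested genes in that direction. These calls were lost without *Postn*-/- replicate 3, *wt* replicate 1 or *wt* replicate 2, and in voomWithQualityWeights. They were also absent with the filter of over 1 CPM in all samples, which left 5 markers. The count was 1 in DESeq2 and without *Postn*-/- replicate 1 or 2, and 1 marker was lower without *wt* replicate 2. In the fit without *wt* replicate 2, 1257 of 14427 tested genes were called in either direction. The summed mural markers were 91.4 to 126 CPM per kilobase in *Postn*-/- and 83.2 to 154 in *wt*, led by *Acta2* and *Cspg4*. They were lowest in *wt* replicate 1, where *Pdgfrb* was highest, and the part of mural cells in the *Pdgfrb* values was not tested.

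Of the progenitor surface proteins, *Ly6a* was read at 42.3, 57.9 and 24.7 CPM in *Postn*-/-, against 26.3, 34.9 and 31.6 CPM in *wt*. *Postn*-/- held both the 2 highest libraries and the lowest one. The log2 fold change was 0.43 ± 0.28 (95% interval −0.22 to 1.08). Without *Postn*-/- replicate 3 it was 0.70, and edgeR's test then gave an unadjusted p of 0.00829, with a Benjamini-Hochberg adjusted p of 0.983. The log2 fold change was 0.11 without *Postn*-/- replicate 2 and 0.20 with voomWithQualityWeights. No other tested member reached an unadjusted 0.05 in any setting run, and over all settings the adjusted p of *Ly6a* ran from 0.592 to 0.983. Counts of *Ly6a* (chr15:74994877-74998031, minus strand) are uncertain, since 19.0% of the 50-base words of its transcripts also occur in *Ly6c1*, *Ly6i* and other near copies, and reads in them would have been dropped as not unique or placed on a copy. Of these copies *Ly6c1* was at 8.02 CPM per kilobase with a log2 fold change of 0.47 ± 0.31, and *Ly6i* had at most 3 reads in any library. None of the 4 tested of 10 further Ly6 and CD34 family genes reached an unadjusted p of at most 0.05.

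*Dpp4* was read at 1.00, 1.38 and 1.75 CPM in *Postn*-/-, against 1.80, 1.31 and 2.24 CPM in *wt*. These values rest on 25, 34 and 37 reads against 47, 29 and 47. The log2 fold change was −0.38 ± 0.32 (95% interval −1.11 to 0.36), a difference within the spread between these libraries. Leaving out any 1 library gave −0.58 to −0.19. In the annotation 3.67% of the exon bases of *Dpp4* (chr2:62330073-62412231, minus strand) are also covered by *Gm13561* on the opposite strand, and the sources used here do not give whether counting used strand. The other 8 dipeptidyl peptidase family genes were fitted higher in *Postn*-/- (median 0.21), but only 5 of them without *Postn*-/- replicate 1 and 6 without *wt* replicate 1 or 2. *Dpp8* (0.37 ± 0.13), a cytosolic peptidase, and *Dpp6* (0.64 ± 0.26), a potassium channel subunit without peptidase activity, were at an unadjusted p of at most 0.05, beside 3.95% of all tested genes in that direction. None was without *wt* replicate 1, and none passed the adjusted threshold.

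*Cd34* was read at 1.48, 3.12 and 4.98 CPM in *Postn*-/-, against 6.92, 1.58 and 1.86 CPM in *wt*. *wt* replicate 1 was highest with 181 reads, while the other 2 *wt* libraries had 35 and 39. The log2 fold change was −0.13 ± 0.63 (95% interval −1.60 to 1.33), and without *wt* replicate 1 it was 0.88. Its coefficient of variation of 0.529 was at percentile 99.1 of tested genes. *Cd34* (chr1:194938821-194961292, plus strand) shares 5.65% of its exon bases with *Gm16897* on the opposite strand. *Cd34* is also made by endothelium and blood progenitors. Endothelial markers summed to 2.35 to 3.08 CPM per kilobase in *Postn*-/- and 1.86 to 2.60 in *wt*, with *Egfl7* and *Pecam1* leading at means of 0.830 and 0.509. The 6 tested of 8 were fitted higher in *Postn*-/-, none at an unadjusted p of at most 0.05, and without *Postn*-/- replicate 3 only 3 of 5 tested were. *wt* replicate 1, the library with the most *Cd34*, had an endothelial sum of 2.00, and the part of endothelial RNA in the *Cd34* values was not tested.

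*Prrx1* was read at 25.8, 20.4 and 17.4 CPM in *Postn*-/-, against 20.8, 17.9 and 14.3 CPM in *wt*. The groups overlapped, and the highest library was *Postn*-/- replicate 1 and the lowest *wt* replicate 3. The log2 fold change was 0.26 ± 0.20 (95% interval −0.19 to 0.71) and stayed positive, between 0.10 and 0.40, whichever library was left out. Over all settings the adjusted p of *Prrx1* ran from 0.553 to 0.983. Of 15 other limb mesenchyme transcription factors 9 were tested, and *Msx1* was at an unadjusted p of at most 0.05 (0.76 ± 0.25), beside 3.95% of all tested genes in that direction, but not without *Postn*-/- replicate 1. Their median was 0.07, with none past the adjusted threshold. This median was 0.31 with voomWithQualityWeights, 0.26 with surrogate variables and 0.24 with the replicate block. It ran from 0.049 (without *wt* replicate 2) to 0.35 (without *wt* replicate 1) when 1 library was left out.

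Among 34 other perichondrial and fibroblast genes, 31 were tested, with a median log2 fold change of 0.23 against 0.004 for all tested genes. At an unadjusted p of at most 0.05, 5 were higher and 1 lower in *Postn*-/-, beside 3.95% and 2.35% of all tested genes, and none passed the adjusted threshold. The 1 lower gene was *Postn* itself, the gene knocked out, so this lower call follows from the genotype. Leaving out 1 library moved the median between 0.071 (without *Postn*-/- replicate 1) and 0.36 (without *wt* replicate 1). The higher calls numbered 10 with surrogate variables, when 1882 of 14533 tested genes were called in either direction. Without a filter on low counts they numbered 9, when 1795 of 34295 genes were called. Besides *Postn*, the lowest unadjusted p were those of *Col14a1*, a fibril-associated collagen of dense connective tissue (1.02 ± 0.26), and *Eng* (endoglin), a co-receptor for transforming growth factor β (0.55 ± 0.15). The other higher calls were *Col6a1* (0.57 ± 0.21), *Col6a2* (0.89 ± 0.27) and *Igf1* (0.71 ± 0.29). *Sparc* and *Fn1* (fibronectin) had the highest levels of this list, at means of 7499 and 1029.6 CPM per kilobase. Fitted values were higher in *Postn*-/- for 23 of these 31 genes and for 4 of the 8 tested markers. The 8 list genes fitted lower included the collagen I genes *Col1a1* (−0.20 ± 0.57) and *Col1a2* (−0.39 ± 0.41), so the list did not move as a whole.

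The planar cell polarity genes of the Wnt pathway, in which *Cthrc1* acts, gave 16 tested genes of 17. *Dvl2* was higher (0.49 ± 0.16) and *Wnt5a* (−0.65 ± 0.26) and *Dvl3* (−0.34 ± 0.14) lower at an unadjusted p of at most 0.05, beside 3.95% and 2.35% of all tested genes, and none passed the adjusted threshold in edgeR's test. The 2 lower calls became 1 under upper quartile scaling, without a filter, with over 1 CPM in all samples and in voomWithQualityWeights. They were also 1 without *Postn*-/- replicate 1 or *wt* replicate 3. They became 0 with the replicate block, and without *Postn*-/- replicate 2, *Postn*-/- replicate 3 or *wt* replicate 2. The higher call was lost without *Postn*-/- replicate 3 or *wt* replicate 3. Higher calls numbered 3 without *wt* replicate 2, when 1257 of 14427 tested genes were called in either direction. *Wnt5a* is a ligand of this branch, and *Dvl2* and *Dvl3* carry its signal inside the cell. *Wnt5a* was at 23.4, 15.4 and 16.8 CPM in *Postn*-/-, against 24.8, 40.7 and 22.0 CPM in *wt*, so that its groups overlapped, while those of both *Dvl* genes did not, as for 13.6% of all tested genes. *wt* replicate 2 was the highest library for *Wnt5a* and also for *Cthrc1*. The list's median was −0.02, against 0.004 over all tested genes.

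Markers of neighbouring cell types were given beside the members. Of the 18 chondrocyte markers, 10 were fitted higher and 8 lower in *Postn*-/-. At an unadjusted p of at most 0.05, 4 were higher and none lower, beside 3.95% and 2.35% of all tested genes, among them *Chad*, *Col2a1* (0.68 ± 0.21) and *Col9a3* (1.00 ± 0.31), with a list median of 0.11 (−0.04 without *wt* replicate 1). The higher calls numbered 2 without *wt* replicate 3, and the lower calls 1 without *wt* replicate 1 and 2 with surrogate variables. In that order 876 of 14309, 787 of 14456 and 1882 of 14533 tested genes were called in either direction. *Cnmd*, the leading marker, was fitted lower (−0.29 ± 0.17), at 4290.4 ± 664 CPM in *Postn*-/- and 5246 ± 440.4 in *wt*, but was not at the unadjusted threshold. Groups lay apart for 3 chondrocyte markers in the higher direction (*Col2a1*, *Col9a3* and *Chad*) and for *Cnmd* in the lower, beside 7.03% and 6.57% of all tested genes. The summed chondrocyte markers ran from 11115 to 15700 CPM per kilobase in *Postn*-/- and from 10666 to 14373 in *wt*, lowest in *wt* replicate 1 and next in *Postn*-/- replicate 2. Those 2 libraries were the 2 highest for *Olfml3*, *Pdgfra* and *Pdgfrb*, and the part of chondrocyte content in these values was not tested. Osteoblast markers (8 tested) reached no unadjusted p of at most 0.05, and *Spp1* (osteopontin) led them. Blood cell markers (5 of 8 tested) reached none either, though the 5 were fitted higher in *Postn*-/- (median 0.44, and 4 of 5 without *Postn*-/- replicate 1), nor did tendon markers (3 of 4 tested). Tendon calls, all higher, were 2 with surrogate variables (1882 of 14533 tested genes called) and 1 without *wt* replicate 1 (787 of 14456). Of 6 synovial and superficial zone markers 5 were tested, with *Tspan15* (0.91 ± 0.22) at an unadjusted p of at most 0.05, beside the same 3.95%. Their higher calls numbered 3 with surrogate variables, and 3 without a filter (1795 of 34295). Their median was 0.44, and 0.083 to 0.83 without 1 library. Of 6 adipocyte markers 4 were tested and none was at an unadjusted p of at most 0.05. Without *Postn*-/- replicate 2, 2 of the 4 were lower at that threshold, and the list median moved from 0.13 to −1.01. Of all tested genes, 1104 of 14277 were then called in either direction. With surrogate variables 2 were also lower (1882 of 14533 tested genes called), while 1 was higher without *wt* replicate 3 (876 of 14309). No gene of these lists was at 0 in all libraries.

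The 10 genes did not rank the libraries alike. *wt* replicate 1 was the highest library for 4 of them (*Olfml3*, *Ogn*, *Pdgfrb* and *Cd34*), and *Postn*-/- replicate 1 the lowest for 4 (*Cthrc1*, *Olfml3*, *Dpp4* and *Cd34*) and the highest for 2 (*Aspn* and *Prrx1*). *Postn*-/- replicate 2 was highest for *Pdgfra* and *Ly6a*. The perichondrial label therefore covered genes of unequal level and unequal library order in these cultures, from *Ogn* and *Cthrc1* at the top to *Dpp4* at the bottom, and the progenitor markers ran from *Ly6a* among the higher genes to *Dpp4*.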

How the data were processed

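RNA was extracted by the authors from femoral head chondrocytes after culture, and cDNA was made with a SMARTer Ultra Low kit. Per the labels, reads were aligned with STAR 2.0.4b and counted with featureCounts 1.4.5. The authors deposited raw counts of unique, unambiguous reads per gene, with CPM (scaled to the counted reads) and RPKM (CPM per kilobase of gene length). Deposited CPM and RPKM were only checked against the counts. The study's methods name Ensembl release 76 and the processing notes mm9. Of the 40340 identifiers (97.5%) that matched GENCODE M21, which is on GRCm38, 99.2% had starts within 20000 bases, so coordinates are given on GRCm38. Promoters came from RefSeq, whose table was on GRCm38.p6 and matched 7 of the members outside chromosome 18. Whether counting used strand is not given in the sources used here.

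The filter kept genes over 1 CPM in 2 or more samples and removed 355 rRNA genes. In R 4.3.3, edgeR 4.0.16 (TMM, quasi-likelihood test, Benjamini-Hochberg over 14533 genes) compared the 3 *Postn*-/- with the 3 *wt* libraries without covariates, and the printed CPM are TMM-normalized. Alternatives were other scalings and filters, a robust fit, DESeq2 1.42.0, limma 3.58.1 with voomWithQualityWeights, the same with 2 surrogate variables from sva 3.50.0, a replicate block, and leaving out each library. The fit was tested on simulated data. Pairs of libraries differed beyond sampling noise (chi-square per degree of freedom 36.5 to 110), so each was used as 1 sample. The members and gene lists were chosen with earlier results of these data known. All 10 members are named, with the 5 genes most like *Cthrc1* and *Olfml3* (1 of them is not reported here), and of each list up to 3 genes of lowest unadjusted p and the 2 with the highest level per length. *Ecm2*, *Omd*, *Pdgfb*, *Ly6i*, *Col6a1*, *Col6a2*, *Igf1*, *Col1a1* and *Col1a2* were named after their values were seen.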

Additional observations from a re-analysis of the deposited data

How the results depend on the processing

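Over all tested genes, calls at the adjusted threshold numbered 2, and 1 with upper quartile scaling, 9 without a filter, 0 with over 1 CPM in all samples, 11 in DESeq2, 1 with voomWithQualityWeights, 1 with the replicate block and 1 to 2 without 1 library. At the unadjusted threshold, 916 genes became 1795 without a filter, 1882 with surrogate variables, and 425 to 1257 without 1 library, with 425 without *Postn*-/- replicate 3. The 8 tested members gave 0 calls in every setting run, except 1 (*Ly6a*) at the unadjusted threshold without *Postn*-/- replicate 3, a range of 0 to 1. Of 102 related list genes, 14 were at the unadjusted threshold, *Postn* itself among them, beside 6.3% of all tested genes. They numbered 24 with surrogate variables, beside 1882 of 14533 tested genes, and 11 to 16 without 1 library. None passed the adjusted threshold. The filter of over 1 CPM in all samples removed *Dpp4*. Signs turned for *Aspn* (0.09; −0.32 with voomWithQualityWeights, −0.11 with surrogate variables, −0.0725 with the replicate block, −0.65 to 0.63 without 1 library) and *Cd34* (−0.13; 0.45, 0.31 and 0.0866 in the same order, −0.60 to 0.88 without 1 library). They also turned without 1 library for *Ogn* (−0.44 to 0.27) and *Pdgfrb* (−0.26 to 0.024). *Cthrc1* and *Olfml3* were lower in every setting, at −0.84 to −0.76 and −1.45 to −0.96, and at −1.0 to −0.64 and −2.18 to −0.52 without 1 library. Both were picked for lower counts in these same libraries, so their constant sign is no support for the direction. For the moves between settings the cause was not tested. Same-numbered libraries correlated in their deviations across genes at 0.0824, 0.155 and 0.143, against −0.13 to 0.0143 for unlike numbers. Each library thus correlated best with its own number. As not all of the same-numbered values were above 0.1, the numbers were not taken as pairs in the main fit. Whether libraries of 1 number share a source was not tested. The block changed the call of no member, and took the lower unadjusted calls among planar cell polarity genes from 2 to 0. It took the higher unadjusted calls from 5 to 7 among other perichondrial and fibroblast genes, and from 1 to 2 among synovial and superficial zone markers. Among olfactomedin family genes and among tendon markers it took them from 0 to 1. Over all tested genes the block took unadjusted calls from 916 to 1188. With 3 libraries a genotype and coefficients of variation above 0.5 for *Olfml3*, *Aspn* and *Cd34*, their values rest on few and unequal libraries, and *Dpp4*, with 25 to 47 reads a library, was the member nearest to the counting floor.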

Other observations

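Some genes of the related lists varied widely between libraries within both genotypes. They were picked after their values were seen. Levels of *Myoc* (myocilin), of the olfactomedin family of *Olfml3*, were 170.1, 108 and 15.2 CPM in *Postn*-/-, against 59.7, 4.64 and 114 in *wt*, a 36.7-fold range over the 6 libraries. *Prg4* (lubricin), the lubricating proteoglycan of the cartilage surface, was at 834, 205 and 419.6 CPM in *Postn*-/-, against 436, 130.1 and 278 in *wt*. *Thbs4* (thrombospondin 4), a matrix protein of tendon, was at 27.6, 6.92 and 11.7 CPM in *Postn*-/-, against 14.0, 4.28 and 8.49 in *wt*. *Prg4* and *Thbs4* were lowest in both replicate 2 libraries, as *Aspn* was. *Fabp4* was highest in the replicate 2 libraries, with 255 and 147 CPM there and 21.0 to 60.2 in the other 4.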
